A study of Drosophila melanogaster with 12 samples.

Results

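The genes described here encode the proteins of the mitochondrial ribosome and of the respiratory chain that are made from nuclear DNA in Drosophila melanogaster. They were chosen by symbol alone: a nuclear protein-coding gene was a member when its symbol began with mRpL, mRpS, ND-, UQCR-, COX or ATPsyn. The rule found 153 members among 13968 protein-coding genes scored, and the other 13815 genes served for comparison. Among the members, 47 encode proteins of the large and 26 of the small mitochondrial ribosomal subunit, 34 belong to complex I, 6 to complex III, 8 to complex IV and 11 to complex V. The remaining 21 are paralogues whose symbol carries an L suffix, such as COX4L beside COX4, and are described apart from the other 132.

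The mitochondrial ribosome translates the few proteins encoded by the mitochondrial genome, all of which join the respiratory chain. Complexes I, III and IV pump protons across the inner mitochondrial membrane as they pass on electrons, and complex V, the ATP synthase, uses the gradient to make ATP. Each complex other than complex II therefore combines proteins from both genomes. The fly egg is loaded with mitochondria and with maternal mRNA for these proteins, and the zygotic genome is switched on only after a run of rapid nuclear divisions. Promoters of such housekeeping genes are commonly active in every cell type.

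ATAC-seq, which finds open chromatin by where a transposase can cut, had been carried out on whole embryos in 6 groups of 2 libraries. At 0.5–1.5 h there were wild-type embryos and M-Z+ HIRA mutant embryos, and the same pair was taken at 2–3 h. A second set at 0.5–1.5 h held wild-type embryos and M-Z+ dPCIF1 mutant embryos, dPCIF1 being the fly gene CG11399. M-Z+ means that the maternal gene product is missing while the embryo carries a zygotic copy. HIRA is the chaperone that deposits histone H3.3, and dPCIF1 is the fly homologue of a mammalian mRNA cap methyltransferase. According to the study's methods, wild-type embryos came from the w1118 strain. Embryos were selected by hand and pooled, and an early library held more embryos than a late one. The mutant alleles were CRISPR null alleles, and for dPCIF1 the study also used a deficiency line. Which combination of alleles went into ATAC-seq is not stated. The study also describes many HIRA maternal mutant embryos as delayed or arrested in nuclear division, some of them likely without any division. Stage by the clock is therefore not the same as stage by nuclear cycle in that group. The paper also cites a role of HIRA in forming the diploid zygote, and the labels do not give the ploidy of these embryos.

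A gene was called open in a library when a peak overlapped the 500 bp on either side of any of its annotated transcription start sites. The peak lists hold positions only, without heights or reads, so the sequencing depth behind a call is unknown. The lists ran from 1505 peaks in a library of early HIRA mutants to 11432 peaks in a late wild-type library, and the number of peaks moved with most differences given here. Because these are pools of whole embryos, a promoter open in fewer nuclei and one less open in every nucleus cannot be told apart. Each of the 13 early embryonic genes checked as markers, such as sc, Kr and ftz, was open in at least 9 libraries, and the median was 12 of 12. The 179 chemoreceptor genes, silent in such embryos, had a peak in 1.68% to 17.3% of genes, depending on the library. The start of Hira was open in 5 libraries and that of Pcif1, the annotated name of CG11399, in 4, but a peak at a start says nothing about the mutant alleles. With 2 libraries per group an exact two-sided permutation test cannot give less than 0.333, so the comparisons below are given as values without a test.

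The promoter sequences show what kinds of start sites these genes have. The sequences below, read from the dm6 genome, end at the base before the 5′-most annotated start and stop where an exon of a neighbouring gene begins, or at 150 bases. Capitals mark the DRE (TATCGAT, a motif of housekeeping promoters), the motif read by M1BP (GGTCACACT) and an E-box (CAGCTG), on either strand. The first 3 belong to members open in many libraries that turn up in the HIRA comparisons, ND-15 had the widest gained peaks in dPCIF1 mutants, COX4 is the parent of the paralogue COX4L, and ATPsynD is shown because its 94 upstream bases are all that separates it from mRpL55. The last pair was open in no library.
ND-PDSW: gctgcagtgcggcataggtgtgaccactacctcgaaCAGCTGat
mRpL48: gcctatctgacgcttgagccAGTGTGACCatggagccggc
mRpL47: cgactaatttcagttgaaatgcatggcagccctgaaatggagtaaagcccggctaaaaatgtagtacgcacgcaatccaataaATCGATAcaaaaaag
ND-15: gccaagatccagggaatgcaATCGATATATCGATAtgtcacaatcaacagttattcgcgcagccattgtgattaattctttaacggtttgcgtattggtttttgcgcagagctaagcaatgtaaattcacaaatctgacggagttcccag
COX4: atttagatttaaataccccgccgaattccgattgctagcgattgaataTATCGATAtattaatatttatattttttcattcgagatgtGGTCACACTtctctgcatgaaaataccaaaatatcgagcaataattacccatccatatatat
ATPsynD: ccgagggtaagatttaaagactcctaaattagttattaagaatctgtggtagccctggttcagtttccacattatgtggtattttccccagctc
mRpL14: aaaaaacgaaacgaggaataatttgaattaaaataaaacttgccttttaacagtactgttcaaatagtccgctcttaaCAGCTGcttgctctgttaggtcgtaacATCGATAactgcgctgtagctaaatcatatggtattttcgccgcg
ATPsynO: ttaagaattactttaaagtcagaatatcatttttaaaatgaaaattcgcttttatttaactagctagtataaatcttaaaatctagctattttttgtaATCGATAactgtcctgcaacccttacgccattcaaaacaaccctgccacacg

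These stretches lie at chr2L:3466113-3466156 (plus strand) for ND-PDSW, chr2L:1710422-1710461 (plus) for mRpL48, chr3R:9515909-9516006 (minus) for mRpL47 and chr2L:114576-114725 (plus) for ND-15. The others lie at chr2L:19958563-19958712 (plus) for COX4, chr3R:19094906-19094999 (plus) for ATPsynD, chrX:2344650-2344799 (minus) for mRpL14 and chr3R:15265441-15265590 (plus) for ATPsynO. The ND-PDSW sequence is 44 bases long because the divergent neighbour is msl-2, a gene of dosage compensation whose start is 45 bp away. In ND-15 and COX4 the capitals at the DRE cover overlapping matches on both strands.

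Motifs were searched on both strands from 250 bases before to 50 after the 5′-most start, and a match is a description of letters, not a bound site. The E-box CAGCTG was present in 40 of the 73 mitochondrial ribosomal genes (54.8%) and in 18 of the 59 respiratory chain genes without L paralogues (30.5%), beside 17.7% of all protein-coding promoters. Among the 88 cytosolic ribosomal protein genes the share was 9.09%. The DRE was found in 32.9% of mitochondrial ribosomal genes, 27.1% of respiratory chain genes and 39.8% of cytosolic ribosomal protein genes, beside 18.2% of all promoters. The M1BP motif was found in 14 of 59 respiratory chain genes (23.7%) and in 8 of 73 mitochondrial ribosomal genes, and the share over all promoters was 6.04%. Among the 93 members without L paralogues that have another gene's start within 500 bp, the DRE was found in 28%, the M1BP motif in 18.3% and the E-box in 45.2%, beside 28.2%, 10.1% and 23.0% of other genes with such a neighbour. Of the 21 L paralogues, 3 had a DRE, 1 an M1BP motif and 1 an E-box.

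**Figure D1:**
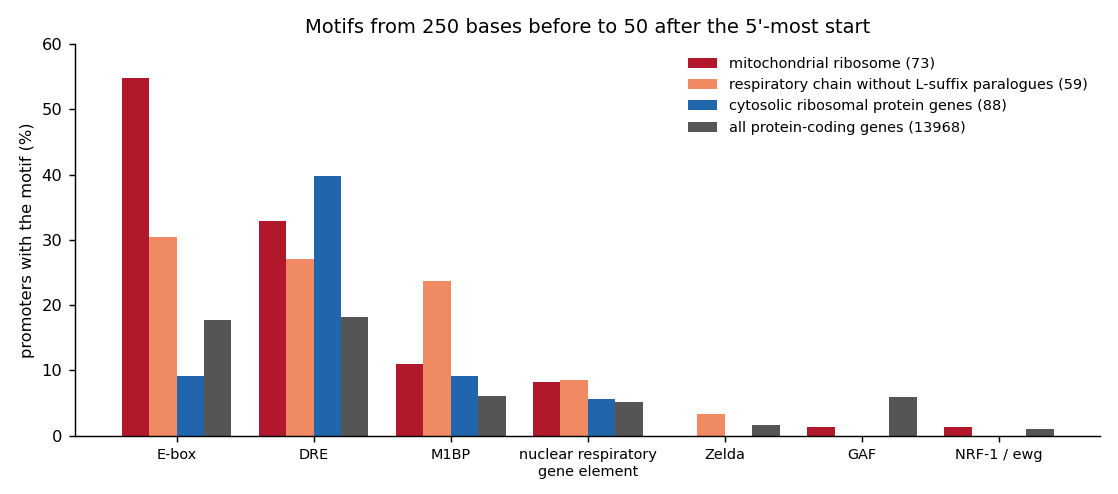
Share of promoters (%, bars from 0) that hold each motif on either strand, for mitochondrial ribosomal genes, respiratory chain genes without L paralogues, cytosolic ribosomal protein genes and all protein-coding genes, with the number of genes in the legend. The E-box stands at 54.8% in mitochondrial ribosomal genes and 17.7% in all genes. GAF stands below 2% in the member groups, at 0% in cytosolic ribosomal protein genes and at 5.86% in all genes.

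Of the motifs of the pioneer factors that this system is known for, that of GAF was rare at members. That of Zelda was near its share over all promoters. The GAF motif GAGAGAG lay in 1 of the 132 promoters without L paralogues, that of mRpL43, beside 5.86% of all promoters, and in that of the paralogue COX7AL2. The Zelda motif CAGGTAG lay in those of ND-19 and ND-MWFE, a share of 1.52% beside 1.64%. Cytosolic ribosomal protein genes had 0 of 88 for either motif. Other genes with a neighbouring start had 4.29% for GAF and 1.47% for Zelda. The nuclear respiratory gene element, searched as TTACGTAA, TTACATAA, TTATGTAA or TTATATAA, of which the last overlaps the letters of a TATA box, lay in 11 of 132 (8.33%, beside 5.18%), among them mRpS17, ND-49, ND-SGDH and ND-MNLL. GCGCATGC, a motif for the NRF-1 homologue ewg, was found at mRpL21 alone, beside 1.05% of all promoters. Members with a motif were ordered by the mean rank of their peak width within each library in which they were open. The first with a DRE were mRpS17, ATPsynG, ND-15 and mRpL17, of which ATPsynG was open in 1 library and mRpL17 in 2. The first with the M1BP motif were COX5A, ND-PDSW, COX7B and ND-MWFE. For the E-box they were mRpS17, mRpL11, ND-15 and mRpL17.

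Openness was set beside the motifs. The 22 members without L paralogues that had the M1BP motif were open in a median of 3 libraries and those without it in 2. For the other protein-coding genes the medians were 4 and 0. Members without L paralogues that had a DRE and those without one were both open in a median of 2 libraries, where other genes had medians of 2 and 0. Over all 153 members these medians were 1 with and 2 without a DRE. Of the 53 among all 153 members that were open in no library, 14 had a DRE and 1, ND-ACP, had the M1BP motif, and 7 of the 31 members open in 5 or more libraries had the latter. Median GC content of these 300-base windows was 34.6% for members and 37.9% for other genes.

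No member was open in all 12 libraries, a state found at 293 other protein-coding genes (2.12%). COX7C, a small subunit of complex IV, ATPsynbeta, the catalytic subunit of ATP synthase, and mRpL53 of the large ribosomal subunit were open in 11 each. The library missed by all 3 was replicate 1 of the early HIRA mutants, in which none of the 132 members without L paralogues was open. The median was 2 libraries for members and 1 for other genes. At the lower end, 53 members (34.6%) were open in no library, beside 49.5% of other genes. Of the 57 members alone in their window 57.9% were open in none, beside 56.8% of other genes alone in theirs, with medians of 0 libraries for both. Of the 96 with another start in the window 20.8% were open in none, beside 35.4% of other such genes, with medians of 2 libraries for both. There were 10 members open in 10 or more libraries, beside 1256 of 13815 others.

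Widths are those of the widest peak in a gene's window, which need not be the same peak in each library. At ATPsynbeta it measured between 200 and 489 bp. In the early wild-type libraries of the HIRA set it was 244 and 200 bp wide, in the second early HIRA mutant library 247 bp, in late wild type 309 and 383 bp and in late HIRA mutants 280 and 293 bp. In the dPCIF1 set it was 316 and 319 bp in wild type and 463 and 489 bp in mutants. These were different peaks, centred 281.5 and 270 bp downstream of the start in wild type and at -661 and -676 bp in mutants, and the 383 bp peak in late wild type was centred at -658 bp. ATPsynbeta and ND-49, a core subunit of complex I, are the 2 members on chromosome 4. The widths of COX7C were 352 and 721 bp in early wild type, 292 bp in the second early HIRA mutant library, 783 and 777 bp in late wild type and 739 and 665 bp in late HIRA mutants. In the dPCIF1 set they lay between 694 and 703 bp in all 4 libraries.

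The ribosome and the complexes differed in how widely they were open. All 8 members of complex IV without L paralogues and 9 of 11 of complex V were open in at least 1 library, beside 26 of 47 genes of the large ribosomal subunit, 20 of 26 of the small subunit, 28 of 34 of complex I and 3 of 6 of complex III. The median number of open libraries was 3 for complex V, 2.5 for the small subunit, 2 for complexes I and IV, 1 for the large subunit and 0.5 for complex III. Members at or next to the median of their group were ATPsynCF6 and ATPsynD (3 libraries), mRpS10 (2), ND-13B (2), COX7B (2), mRpL3 (1) and UQCR-6.4 (1). Among those open in none were mRpL10, mRpL12, mRpL14, ND-ACP, ATPsynO, ATPsyndelta, UQCR-C1 and UQCR-C2, the last pair being the large core proteins of complex III. By group the 53 comprised 21 of the large and 6 of the small ribosomal subunit, 6 of complex I, 3 of complex III, 2 of complex V and 15 L paralogues.

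**Figure D2:**
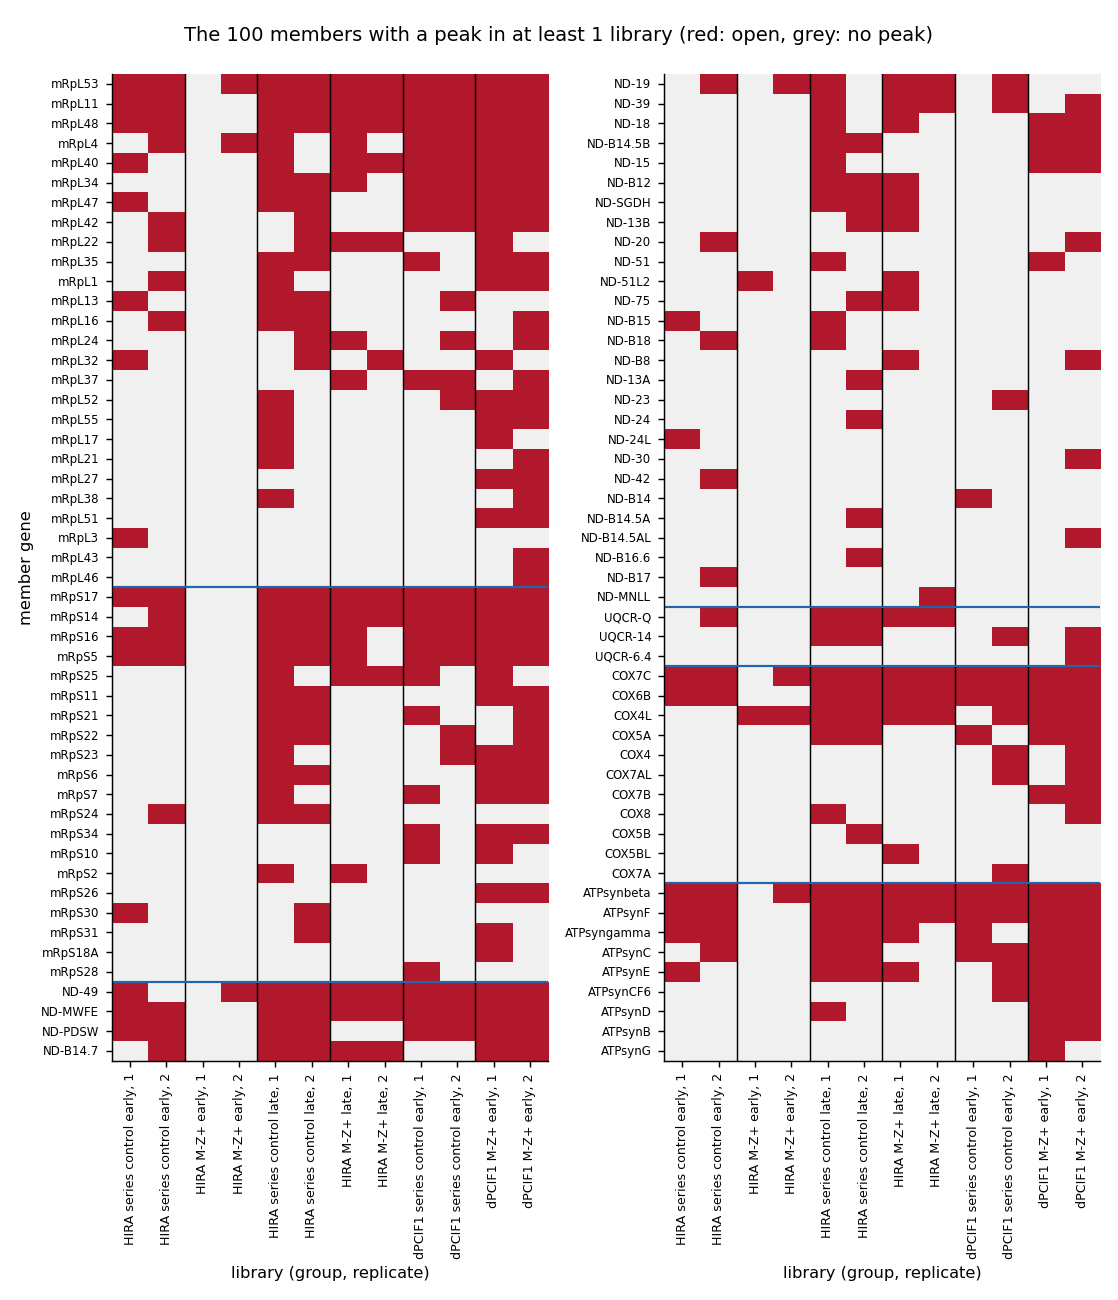
Map of the 100 members with a peak in at least 1 library (rows, grouped by blue lines into ribosomal subunits and complexes, sorted by the number of open libraries) over the 12 libraries (columns, black lines between groups). Red marks a peak within 500 bp of a start; COX7C, ATPsynbeta and mRpL53 are red in 11 columns, and in the first early HIRA mutant column COX4L and ND-51L2 alone are red.

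The L paralogues were closed at most starts. Many duplicated genes for mitochondrial proteins in Drosophila are known for expression in the testis. Of the 21, 15 were open in no library: ND-20L, ND-49L, ND-51L1, UQCR-11L, UQCR-14L, UQCR-6.4L, COX6AL, COX6AL2, COX6CL, COX7AL2, COX7CL, ATPsynCF6L, ATPsynGL, ATPsynbetaL and ATPsynepsilonL. The matching genes without the suffix had peaks in up to 11 libraries (COX7C and ATPsynbeta), in 10 for ND-49, 4 for UQCR-14, 3 for ATPsynCF6, 2 for ND-20 and ND-51, 1 for UQCR-6.4, ATPsynG and COX7A, and none for UQCR-11. ND-51L2 and COX7AL were open in 2 libraries, and ND-24L, ND-B14.5AL and COX5BL in 1. Their parents were not more open: ND-51 in 2 libraries and COX7A, ND-24, ND-B14.5A and COX5B in 1 each.

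COX4L, like COX7AL, was open in more libraries than its parent. It was open in 9 libraries and COX4 in 2, the second replicates of both groups of the dPCIF1 set. The COX4L peak was absent from both early wild-type libraries of the HIRA set and from the first of the dPCIF1 set. It was 204 and 488 bp wide in early HIRA mutants, 454 and 524 bp in late wild type, 526 and 603 bp in late HIRA mutants, 395 bp in the second wild-type library of the dPCIF1 set and 566 and 554 bp in dPCIF1 mutants. It was the one member open in both libraries of the early HIRA mutants. No start of another gene lay within its window, and its promoter held none of the motifs searched.

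Members stood close to other genes. Another gene's start lay within 500 bp of a member's start for 96 of 153 members (62.7%), beside 34.1% of other genes, and for 92 (60.1%, beside 27.4%) that neighbour was a coding gene on the opposite strand. Without L paralogues the first share was 93 of 132 (70.5%), and for cytosolic ribosomal protein genes it was 51.1%. At such a start a peak cannot be assigned to 1 of the 2 genes. ATPsynD, a stalk subunit of ATP synthase, and mRpL55 were the 1 pair of members that face each other, with starts 95 bp apart, and they shared their peak in 3 libraries.

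Outside the HIRA mutants, members with a neighbouring start were open more often than members alone in their window. Without L paralogues, the 93 with a neighbour were open in 20.4% and 24.7% of cases in early wild type of the HIRA set, and the 39 alone in 7.69% and 12.8%. In late wild type the shares were 50.5% and 40.9% with a neighbour and 20.5% and 23.1% alone. The same held in the dPCIF1 mutants, at 47.3% and 53.8% against 20.5% and 25.6%. The 2 kinds of member did not overlap in any of these groups. In late HIRA mutants they overlapped, at 26.9% and 18.3% with a neighbour and 20.5% and 7.69% alone. They also overlapped in early HIRA mutants, at 0% and 5.38% against 0% and 2.56%. Other protein-coding genes in late wild type were also open more often with a neighbour, at 45.2% and 43.6% against 26.7% and 24.9%. Members alone in their window were less often open than other genes alone in theirs in 12 of 12 libraries, by 1.77 to 8.13 percentage points, where 1 gene of the 39 is worth 2.56 points. Members with a neighbour were below the other genes with one in 6 of 12 libraries. Among the 39, those open in most libraries were mRpS5 (9), mRpL4 and mRpL40 (8 each) and ND-B14.7 (7).

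**Figure D3:**
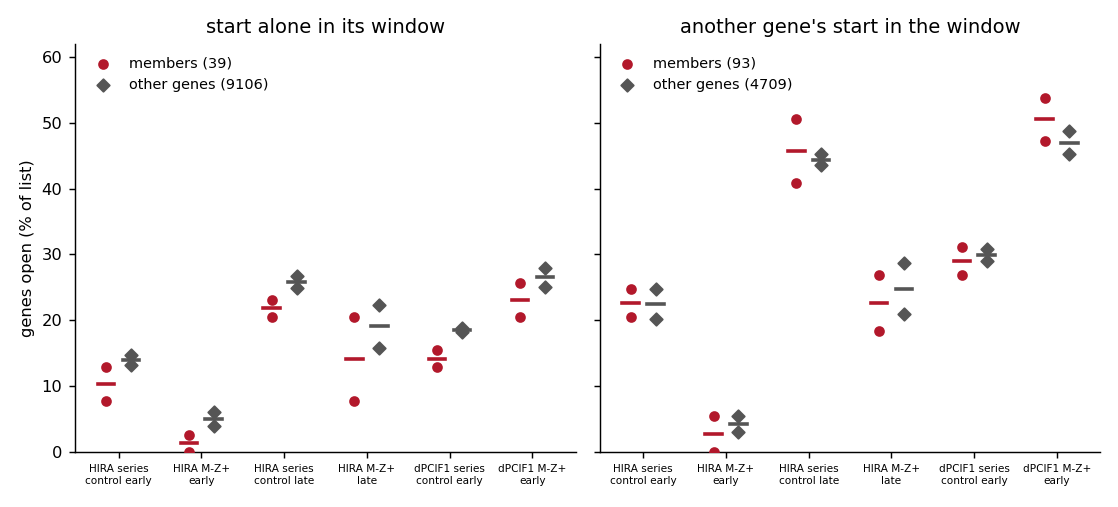
Share of genes open (%) in each library (points) with the mean of the 2 libraries (bar), for starts alone in their 1-kb window (left) and starts with another gene's start in it (right). Members, drawn without L paralogues, reach 20.5% and 23.1% in late wild type when alone and 50.5% and 40.9% with a neighbour. Other genes there reach 26.7% and 24.9% when alone and 45.2% and 43.6% with a neighbour.

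Early HIRA mutants had few peaks at members. The share of members open was 15.0% and 18.3% in early wild type and 1.31% and 4.58% in early HIRA mutants, which is 16.7% ± 2.31 against 2.94% ± 2.31 (SD, n = 2). The groups did not overlap, and the difference of 13.7 percentage points was beyond the spread between replicates (pooled SD 2.31). Other protein-coding genes had 16.8% ± 1.86 and 4.66% ± 1.63. On the log2 scale the ratio of the group means was -2.50 for members and -1.85 for others. In replicate 1 of the mutants none of the 132 members without L paralogues was open, and in replicate 2 there were 6, namely COX7C, ATPsynbeta, mRpL53, mRpL4, ND-19 and ND-49. The small ribosomal subunit had no open gene in either mutant library, after 15.4% and 19.2% in wild type.

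By the rule that a gene was lost when open in both wild-type and neither mutant library, 10 of 13 members were lost, and among all genes 56.1% (percent called) of 1644 were. The 10 were mRpS17, mRpL11, ND-PDSW, COX6B, ND-MWFE, ATPsynF, ATPsyngamma, mRpS16, mRpL48 and mRpS5. mRpL11, an RNA-binding protein of the factor-binding site of the large subunit, had peaks of 390 and 1147 bp in the 2 wild-type libraries, and mRpS17 of 1195 and 660 bp. ATPsyngamma, the rotating stalk of ATP synthase, had peaks of 359 and 217 bp. Members kept in 1 mutant library were the 3 named above as open in 11. One member, COX4L, was gained, of 115 that could be, beside 0.0824% of all genes. Among the 714 other genes with a neighbouring start that were open in both wild-type libraries, 67.5% were lost, and among the 12 such members 9.

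The number of peaks bears on this contrast. With the 1505 widest peaks taken from every library, 3.27% of members were open in wild type and 1.96% in mutants. Others went from 6.30% to 3.60%. Of members 3 of 3 were lost and 1 of 146 gained, beside 41.3% and 0.318% of others. Leaving out 1 library loosens the rule for that group and changes how many genes can be called. The count of members lost or gained then went from 11 to 24 without wild-type replicate 1 and to 20 without wild-type replicate 2. Lost were 23 of 28 and 19 of 23 members. No share over all genes was computed with a library left out, here or below, so these counts show the change of rule only. With peaks of at least 300 bp, 7 of the 7 that could be were lost, and the share over all genes was not computed. Without the members that share a window 2 were called. The 1 that could be lost, mRpS5, was lost, beside 46.9% of other genes alone in their window. COX4L was gained of 49, beside 0.107%.

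At 2–3 h the same comparison left more members open. The shares were 36.6% and 31.4% in wild type and 23.5% and 13.7% in HIRA mutants, or 34.0% ± 3.70 against 18.6% ± 6.93 (SD, n = 2). The groups did not overlap and differed by 15.4 points (pooled SD 5.56), where other genes had 32.1% ± 1.26 and 21.0% ± 4.89. The mitochondrial ribosome went from 39.7% and 31.5% to 20.5% and 12.3%, and the respiratory chain without L paralogues from 44.1% and 40.7% to 30.5% and 18.6%. The L paralogues had 4.76% in both wild-type libraries and 14.3% and 4.76% in mutants.

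Of 35 members open in both late wild-type libraries, 14 were lost (40%), beside 25.7% of all genes, and none of 84 was gained, beside 1.06%. The widest of these peaks were at ND-PDSW (876 and 857 bp in wild type), COX5A (851 and 815 bp), ND-B14.5B (539 and 591 bp), mRpS21 (528 and 585 bp), mRpS11, mRpS22, mRpL47 and mRpL16. COX5A is a matrix-side subunit of cytochrome c oxidase, and ND-B14.5B and ND-PDSW are accessory subunits of complex I. How many of all genes were lost at both stages was not computed. Among members ND-PDSW was the 1 lost at both. It was open in all 8 libraries other than those of HIRA mutants and in none of their 4, with widths of 671 and 704 bp in early wild type, 556 and 815 bp in wild type of the dPCIF1 set and 211 and 221 bp in dPCIF1 mutants. The peaks in the dPCIF1 mutants were centred at -414 and -39 bp from the start and were not the same peak. Its peaks cannot be told apart from those of msl-2.

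The loss was larger than in other genes in each width class, though on few members. The genes open in both late wild-type libraries were split into 3 equal classes by peak width. In the narrow class 6 of 11 members and 40.5% of other genes were lost, in the middle class 6 of 14 and 26.2%, and in the wide class 2 of 10 and 10.0%. Among genes with a neighbouring start the shares were 12 of 29 members and 31.4% of others. With the 7122 widest peaks of each library, 11 of 25 members were lost and 1 of 106 gained, beside 23.9% and 1.43% of others. The share open went from 23.5% to 15.7%, where others went from 24.9% to 18.0%. The count of 14 became 26 without wild-type replicate 1, 29 without wild-type replicate 2 and 22 without mutant replicate 1. Of these, 22 of 48, 28 of 56 and 21 of 35 members were lost. It was 2 without the members that share a window, of 6 that could be lost. Of other genes alone in their window 20.1% were lost. Of the 57 members alone in their window, 15.8% and 17.5% were open in wild type and 19.3% and 7.02% in mutants. For these members the groups overlapped.

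The peaks called at members in late HIRA mutants lay further downstream than those in wild type. The midpoint of the widest peak lay at a median of -33 and -112.5 bp from the start in late wild type, and at 156 and 160.75 bp in mutants, over the 55, 47, 33 and 20 open members without L paralogues. The midpoint was upstream of the start in 54.5% and 59.6% of them in wild type and in 42.4% and 35% in mutants, so the groups did not overlap. For other genes the medians were 25.5 and 18 bp in wild type and 42.5 and 10.5 bp in mutants. The medians are over different sets of genes in each library, and the cytosolic ribosomal protein genes, at 12.5 and 117 bp against 269.25 and 85.5 bp, overlapped.

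**Figure D4:**
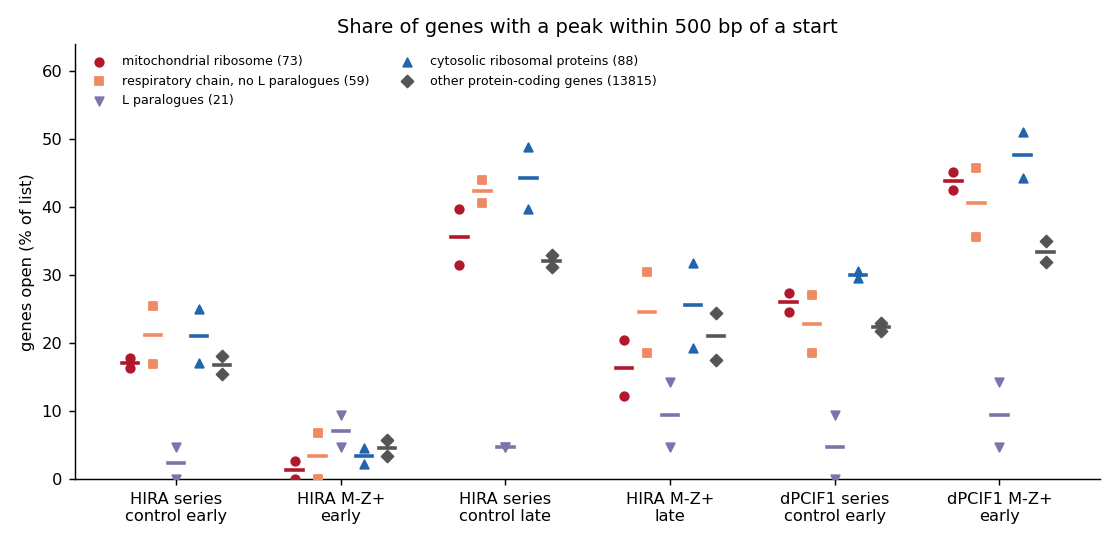
Share of genes with a peak within 500 bp of a start (%) in each library (points), with the mean of 2 libraries (bar), for 5 lists over the 6 groups. Mitochondrial ribosomal and respiratory chain genes stand between 0% and 6.78% in early HIRA mutants, where other genes stand at 3.51% and 5.81%, and reach 35.6% to 45.8% in dPCIF1 mutants, where other genes stand at 32.0% and 35.0%.

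Without maternal dPCIF1 more members were open. The shares were 20.3% and 23.5% in the wild type of that set and 34.6% and 41.2% in mutants, or 21.9% ± 2.31 against 37.9% ± 4.62 (SD, n = 2). The groups did not overlap, and the difference was 16.0 points (pooled SD 3.65). Other genes had 22.4% ± 0.768 and 33.5% ± 2.12. Complex V had the highest mean share in mutants, with 81.8% and 72.7% of its 11 members without L paralogues open, beside 36.4% and 45.5% in wild type.

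None of the 21 members open in both wild-type libraries was lost, beside 3.09% of all genes, and 14 of 107 were gained (13.1%), beside 8.55%. ND-15, an accessory subunit of complex I, had the widest new peaks, 722 and 922 bp, and no peak in either wild-type library. COX7B had 515 and 465 bp, mRpL27 456 and 437 bp, mRpS6 661 and 209 bp, ND-B14.7 410 and 352 bp, mRpS26 343 and 387 bp, mRpL1 292 and 416 bp, and ATPsynB, of the peripheral stalk of ATP synthase, 404 and 291 bp. The other 6 gained were ATPsynD with mRpL55, ND-B14.5B, mRpL51, mRpS11 and ND-18. COX7B, mRpL27, mRpS26, ATPsynB and mRpL51 had a peak in no other group. Among members with a neighbouring start 11 of 59 (18.6%) were gained, and among other such genes 14.4%.

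With the 7534 widest peaks of each library, members went from 21.6% to 29.4% and others from 22.2% to 27.5%. Of members 9 of 108 were gained and 1 of 21 lost. Of the others 5.14% were gained and 6.83% lost. The count of 14 became 23 without wild-type replicate 1, 25 without mutant replicate 1 and 22 without mutant replicate 2. It was 3 without the members that share a window, gained of 48, beside 5.99% of other genes alone in their window.

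From 0.5–1.5 h to 2–3 h the wild-type embryos of the HIRA set gained open members. The means were 16.7% ± 2.31 and 34.0% ± 3.70 (SD, n = 2), a ratio of 1.03 on the log2 scale, and other genes had 0.93. Each of the 13 members open in both early libraries was open in both late ones, so none was lost, beside 0.182% of all genes. Of 115 closed members 12 were gained (10.4%), beside 9.97%. The widest new peaks were those of COX5A (851 and 815 bp), ND-SGDH (837 and 439 bp), ND-B14.5B, mRpS21, COX4L, ND-B12, mRpS11 and mRpS22. The share gained was near the background. Among genes with a neighbouring start it was 8 of 66 members and 16.2% of others.

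The early HIRA mutants started lower and ended lower. The means were 2.94% ± 2.31 early and 18.6% ± 6.93 late (SD, n = 2), and 13 of 145 members were gained, beside 9.83% of all genes. None was lost, since 1 member was open in both early mutant libraries and it was open later, and over all genes the share lost was 0%. The gained members with the widest peaks were mRpL11 (1595 and 377 bp), ND-39 (1442 and 435 bp), mRpS17 (839 and 654 bp), COX6B (592 and 353 bp), mRpL40, ND-MWFE, mRpS25 and UQCR-Q. Over all genes lost early without HIRA, the share open in both late mutant libraries was not computed. Of the 10 members lost early without HIRA, mRpL11, mRpS17, COX6B, ND-MWFE, mRpL48 and ATPsynF were open in both late mutant libraries. These 2 comparisons share libraries with those above.

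Counts for the stages also moved with single libraries and with the number of peaks. In wild type the 12 called became 19 and 20 without early replicate 1 or 2 and 21 and 27 without late replicate 1 or 2. In mutants the 13 became 28 without late replicate 2. With 4707 peaks from each wild-type library, members went from 13.4% to 18.0% and others from 15.8% to 19.2%. With 1505 from each mutant library members went from 1.96% to 3.92%, with 2 of 148 gained, and others from 3.60% to 5.10%, with 1.37% gained. Without the members that share a window 4 of 49 were gained in wild type and 3 of 54 in mutants. Of other genes alone in their window 7.21% and 8.30% were gained.

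The 2 early wild-type sets differed at members by less than either mutant set differed from its wild type. Members open were 16.7% ± 2.31 in the HIRA set and 21.9% ± 2.31 in the dPCIF1 set (SD, n = 2), with no overlap and a difference of 5.23 points (pooled SD 2.31). Of 13 members none was lost between the sets, beside 5.96% of all genes, and 2 of 115 were gained, mRpL34 (579 and 836 bp) and mRpL37 (269 and 343 bp), beside 4.86%. The 2 called became 15 without HIRA-set replicate 1, 11 without its replicate 2, 15 without dPCIF1-set replicate 1 and 11 without its replicate 2. What sets the 2 wild types apart, other than their collection, is not in the labels.

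Peaks at members were narrow in the early wild type of the HIRA set. In the 2 early wild-type libraries of the HIRA set the median width was 275 and 293.5 bp over 23 and 28 open members and 372 and 392 bp over other open genes. As a rank within all peaks of the library this was the 32.1 and 33.2 percentile for members and the 58.7 and 58.9 percentile for others, and the 33.4 and 37.7 percentile for cytosolic ribosomal protein genes. In late wild type the ranks were 61.7 and 56.2 for members and 65.0 and 63.9 for others. In the dPCIF1 set they were 48.9 and 58.3 against 62.5 and 63.5 in wild type, and 62.3 and 60.3 against 66.4 and 65.6 in mutants. Members thus ranked below other genes in all 4 of these groups, with the widest gap in the early HIRA-set wild type. Among the early wild-type peaks the loss in HIRA mutants was 5 of 6 members in the narrow class of width, beside 74.2% of others, 2 of 3 in the middle, beside 56.7%, and 3 of 4 in the wide class, beside 36.9%.

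**Figure D5:**
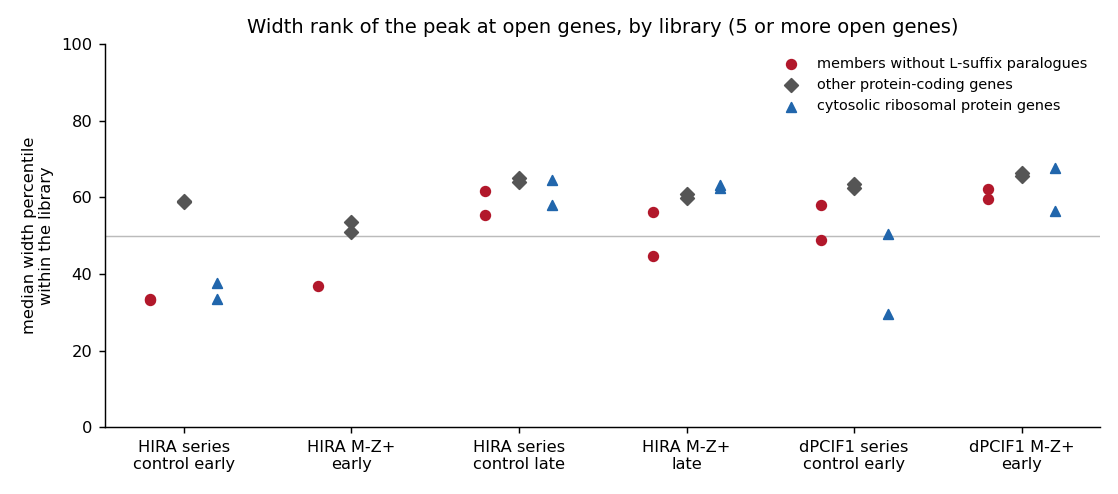
Median rank of peak width (percentile among all peaks of the library, from 0 to 100) at open genes, 1 point per library with at least 5 open genes, for members without L paralogues, other protein-coding genes and cytosolic ribosomal protein genes. In early wild type of the HIRA set the members' points lie near 33, those of other genes near 59.

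Other genes of the pathway, taken from a list of 26 with other symbols, gave a median of 1.5 open libraries. Complex II, which holds no protein of mitochondrial origin, had SdhC and the paralogue SdhAL open in 8 libraries each, SdhA in 2, and SdhB, SdhD and SdhBL in none. Of genes for cytochrome c and for subunits named otherwise, Cyt-c-p, Cyt-c1 and RFeSP were open in 7. The 8 genes for upkeep and transcription of mitochondrial DNA were nearly all closed: PolrMT and mtSSB were open in 2 libraries and TFAM, mtTFB1, mtTFB2, PolG1, PolG2 and mtDNA-helicase in none. Regulators were open more often, ewg in 10 libraries, Ets97D in 5 and srl, the fly PGC-1 homologue, in 2. In the early HIRA comparison SdhAL and ewg were lost, which were the 2 that could be, beside 56.1% of all genes. In the late one RFeSP and ox were lost of 9, beside 25.7% of all genes. Without dPCIF1 none of 4 was lost, beside 3.09%. In that comparison 4 of 19 were gained, beside 8.55%, namely Cyt-c1, ox, Ets97D and srl.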

How the data were processed

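Open chromatin was measured by ATAC-seq in 12 libraries of pooled whole embryos, 2 biological replicates per group. Per the labels and the study's methods, the authors trimmed reads with Trimmomatic 0.39, aligned them to dm6 with Bowtie2 2.2.5, removed duplicates, filtered with SAMtools 1.18 and called peaks per library with MACS2 2.2.7.1; deepTools 3.5.1 is also listed. The deposited values are peak positions only (chromosome, start and end), with no height, score or read number, so depth and counting error are unknown and a gene near the caller's threshold may be called in 1 library and missed in another.

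Starts were taken from Ensembl 115 in dm6 coordinates. Of 13986 protein-coding genes, 18 on sequences without peaks, 13 of them on the mitochondrial genome, were not scored. Members are grouped by symbol. A gene was lost when open in both libraries of the first group and neither of the second, and gained in the reverse case. Replicate numbers name samples and are not known to pair them. Sequences were read from the RefSeq assembly of the same build, whose chromosome lengths hold every peak. Named genes were members open throughout or never (up to 10) and up to 8 lost and 8 gained per comparison by peak width. Every L paralogue was named, with its parent where a member has the matching symbol. Members at the median of their group, up to 4 members per motif and the targeted genes were named too. A few others are named in short lists chosen after their values were seen. Scripts used Python 3.11.15, numpy 2.4.6, pandas 2.3.3 and matplotlib 3.10.9 and were tested on simulated peaks. Alternatives covered the window, the starts, the overlap, the number and width of peaks, the members, single libraries and the control set. Members and lists were chosen with earlier results of these data known.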

Additional observations from a re-analysis of the deposited data

How the results depend on the processing

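All differences in the share of members open kept their direction under every alternative run, though some then lay within the spread between replicates. Leaving out 1 library could not move a share beyond the spread between replicates (1 SD), because each group has 2 libraries. That setting is therefore no check of the shares. Of 62 other values 21 moved beyond the spread. With the same number of widest peaks per library the differences (second minus first group, percentage points) were -1.31 (HIRA early), -7.84 (HIRA late), 7.84 (dPCIF1 early), 4.58 (stage, wild type), 1.96 (stage, HIRA mutants) and 0.98 (the 2 wild types). Without members that share a window they were -4.39, -3.51, 7.89, 8.77, 9.65 and 2.63. The HIRA late value of -3.51 had a pooled SD of 6.20, and its groups overlapped. With equal peak numbers the 2 wild types differed by 0.98 with a pooled SD of 2.55. A 250 bp window gave 11.8 for dPCIF1 early and 14.1 for stage in wild type; a 1 kb window gave 22.2 for stage in wild type, 21.6 in HIRA mutants and 8.82 for the 2 wild types. HIRA early was -6.54 with peaks of at least 300 bp, -16.7 without L paralogues and -19.0 against the other wild type, and dPCIF1 early was 21.2 against the other wild type. Counts of members lost or gained became 4 (HIRA early) and 2 (stage, HIRA mutants) with equal peak numbers; 2, 2, 3, 4, 3 and 0 in the same order without shared windows; 7 (HIRA early) and 8 (the 2 wild types) with peaks of at least 300 bp; and 9 with a 1 kb window (the 2 wild types).

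Leaving out each library in turn, the differences ranged from -15.4 to -12.1 (HIRA early), -20.3 to -10.5 (HIRA late), 12.7 to 19.3 (dPCIF1 early), 14.7 to 19.9 (stage, wild type), 10.8 to 20.6 (stage, HIRA mutants) and 3.59 to 6.86 (the 2 wild types). In that order the counts were 11 to 24, 18 to 29, 21 to 25, 19 to 27, 13 to 28 and 11 to 15. A group of 1 library is easier to call. No share over all genes was computed with a library left out, with another window or with peaks of at least 300 bp.

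With the replicate block (differences within the replicate number) the values were those already given, -13.7, -15.4, 16.0, 17.3, 15.7 and 5.23 points and 11, 14, 14, 12, 13 and 2 members, because the mean of 2 differences is the difference of the means and the both-or-neither rule does not use the replicate number. The block could therefore change neither. Requiring the replicates' peaks to overlap by 20% changed the members open in both libraries of a group by at most 2. The peak lists hold no read depth, so a missing peak may be a closed promoter or a shallow library, and differences in the number of peaks cannot be told apart from the groups.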
